A study of Homo sapiens with 4 samples.

Results

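The genes described here are ATP-dependent chromatin remodelers and core subunits of their complexes. They are a fixed list of 38 symbols out of 60564 gene identifiers counted in each library, found by matching the Ensembl identifiers to GENCODE symbols, and all 38 were matched. Of these, 37 had enough counts to be tested among 22555 genes, and the remaining gene, SMARCB1, is described apart. By family, 13 belong to the BAF complexes, 8 to the ISWI complexes, 8 to the CHD group, 5 to the INO80 group and 4 to other branches of the SNF2 superfamily. RNA came from Elf1, a naïve human ESC line, in 2 culture conditions with 2 biological replicates each. Per the labels, the 2-D grown cells adhered to plastic coated with Matrigel, a basement membrane extract, while the study's methods describe routine growth on mouse embryonic feeders and a change to Matrigel before the cells were enclosed. The 3-D grown cells were enclosed as dissociated cells in a self-assembling PEG-8-SH/PEG-8-Acr scaffold, a hydrogel of polyethylene glycol, and kept there for 21 days. Both conditions shared the cell line and the ESC expansion medium, no gene was edited, and a single line limits how far the values reach.

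Remodelers use the energy of ATP to slide, eject or restructure nucleosomes, and so set how open a stretch of DNA is. BAF complexes, the mammalian SWI/SNF enzymes, mainly move and eject nucleosomes at enhancers and promoters. ISWI enzymes space nucleosomes evenly, CHD enzymes combine an ATPase with domains that read histone tails, and the INO80 group edits nucleosome composition by exchanging the histone variant H2A.Z. Embryonic stem cells are known to use a BAF complex built on SMARCA4, SMARCC1 and ARID1A, and several remodelers are needed for their self-renewal.

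Ribosomal RNA was depleted and all other RNA was sequenced, so that totals of 18276147 to 33833778 counts per library were available, the 2-D libraries being deeper. Mitochondrial genes held 5.10% and 5.30% of the counts in 2-D and 8.33% and 8.50% in 3-D. The 5 core pluripotency markers summed to between 2947 and 3078 normalized CPM in every library. LIN28A, at 1721 to 1812 CPM, made up most of that sum. DPPA4 was at 730 and 713 CPM in 2-D and lower in 3-D, at 684 and 670. SOX2 was at 220 and 215 CPM in 2-D and 258 and 221 in 3-D, and NANOG at 199 and 197 in 2-D and 216 and 204 in 3-D. POU5F1 was at 116 and 117 CPM in 2-D and 109 and 132 in 3-D. The 6 naïve markers summed to between 53.7 and 57.6 CPM. Of these, TFCP2L1 (22.1 to 23.8 CPM), DNMT3L (14.6 to 17.5), KLF4 (9.26 to 10.4) and DPPA3 (5.75 to 7.43) were counted in every library, while KLF17 was at 0.46 to 1.07 CPM and DPPA5 at 0.13 CPM or lower. Normalized CPM are counts scaled to a common library total after TMM, which sets the bulk of the genes equal between libraries. In bulk RNA, fewer cells of a type and less RNA per cell cannot be told apart.

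Promoter sequence is shown for the 3 remodelers whose increase in 3-D held under every one of 13 other ways of processing the counts (SMARCA4, ARID1A and RUVBL1). Each run is taken from the RefSeq promoter window (GRCh38.p14), covers bases before the transcription start that lie in no GENCODE exon, and is written 5′ to 3′ on the strand of the gene, with every CG dinucleotide in capitals.

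SMARCA4: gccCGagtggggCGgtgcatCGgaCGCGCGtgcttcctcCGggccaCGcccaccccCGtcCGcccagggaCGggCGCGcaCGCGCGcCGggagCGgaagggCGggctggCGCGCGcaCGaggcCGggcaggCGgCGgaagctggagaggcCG

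ARID1A: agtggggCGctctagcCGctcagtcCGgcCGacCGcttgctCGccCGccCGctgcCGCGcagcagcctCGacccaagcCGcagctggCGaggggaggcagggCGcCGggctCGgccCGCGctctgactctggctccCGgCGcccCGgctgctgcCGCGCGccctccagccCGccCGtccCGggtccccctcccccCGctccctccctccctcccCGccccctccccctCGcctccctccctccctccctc

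RUVBL1: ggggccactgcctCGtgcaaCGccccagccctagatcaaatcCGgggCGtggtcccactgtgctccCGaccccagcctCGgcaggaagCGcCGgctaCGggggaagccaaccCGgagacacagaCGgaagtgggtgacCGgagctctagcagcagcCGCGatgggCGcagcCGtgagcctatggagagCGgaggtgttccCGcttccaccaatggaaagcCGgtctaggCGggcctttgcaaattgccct

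The SMARCA4 run lies on the plus strand at chr19:10960780-10960931 (152 bases, 27 CG dinucleotides) and ends 98 bases before the RefSeq start. The ARID1A run is on the plus strand at chr1:26695765-26696014 (250 bases, 30 CG dinucleotides), and the RUVBL1 run on the minus strand at chr3:128123813-128124062 (250 bases, 20 CG dinucleotides). All 3 are rich in CG. A RefSeq window of 300 bases, 250 before and 50 after the start, was matched for 30 of the 38 genes. Where a gene had several, the window nearest the GENCODE canonical start was taken. That window lay 18848 bases from the canonical start for CHD8, 983 for BAZ2B and 928 for CHD4, and at that start for the others. Over the 30 windows, the median GC content was 66.3%, against 58.7% over all 35116 windows, where a gene can have several. The median number of CG dinucleotides was 25.5 against 14. The letters TATAAA, searched on both strands, were in 0 of the 30 windows and in 11.5% of all windows. GGGCGGGG, letters that SP and KLF factors bind, were in 11 of the 30 windows (36.7%) and in 22.8% of all. The other letters searched were in 0 to 2 of the 30 windows, namely GCATGCGC of NRF1 (3.05% of all windows), CCGGAAGT of ETS factors (4.14%), AAGATGGC of YY1 (2.89%) and the E-box CACGTG (7.26%). Such matches describe letters and not binding.

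Remodelers were on balance slightly higher in the 3-D grown cells. Of the 37 tested, 10 were upregulated in 3-D and 0 were downregulated in the edgeR quasi-likelihood fit (adjusted p below 0.05 after Benjamini and Hochberg across the whole table, called here). Over all tested genes, 4.54% were called higher and 3.36% lower. DESeq2 called 6 higher and 0 lower, where it called 5.00% and 2.78% of the 10229 genes it adjusted (SMARCD3 and SRCAP not among them). Unadjusted, 21 of the 37 had a p below 0.05, against 21.3% of all tested genes. Remodelers are long and abundant, with a median of 145.6 CPM and 12713 bases of exon against 21.4 CPM and 5333 bases for tested protein-coding genes. A background at a like level was chosen after seeing these values. Among protein-coding genes with a mean of at least 100 CPM, 20.5% were called higher and 53.2% had an unadjusted p below 0.05, and of the 25 remodelers at that level 9 were called higher and 17 had such a p. The called genes were SMARCA4, SMARCC2, SMARCD1 and ARID1A of BAF, BPTF, BAZ1B and BAZ2B of ISWI, CHD6 and CHD8 of CHD, and RUVBL1 of INO80.

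The changes were small. Log2 fold changes of 3-D over 2-D ran from −0.08 (HELLS) to 0.24 (ARID1A), with a median of 0.10 against −0.00014 over all tested genes. The change was above 0 for 31 remodelers and below 0 for 6. Over all tested genes it was above 0 for 11272 and below 0 for 11283. Among 2141 protein-coding genes with a mean of at least 100 CPM, the median was 0.024. Of these, 1260 were above 0 and 881 below. Of the 25 remodelers at that level, 22 were above 0 and 3 below. Both 3-D libraries lay above both 2-D libraries for 28 of the 37, where 25.4% of all tested genes had that order. Both 2-D libraries lay above for SMARCA5, HELLS and SMARCAD1, where 25.1% of all tested genes did. These orders were not counted over genes of a like level. Leaving out a library moved the count of remodelers called higher, to 6 and 3 without 2-D replicate 1 and 2, respectively, and to 13 and 15 without the 3-D replicates 1 and 2. Calls over all tested genes moved the same way, to 3.12%, 2.45%, 5.95% and 5.75% called higher in that order.

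**Figure D1:**
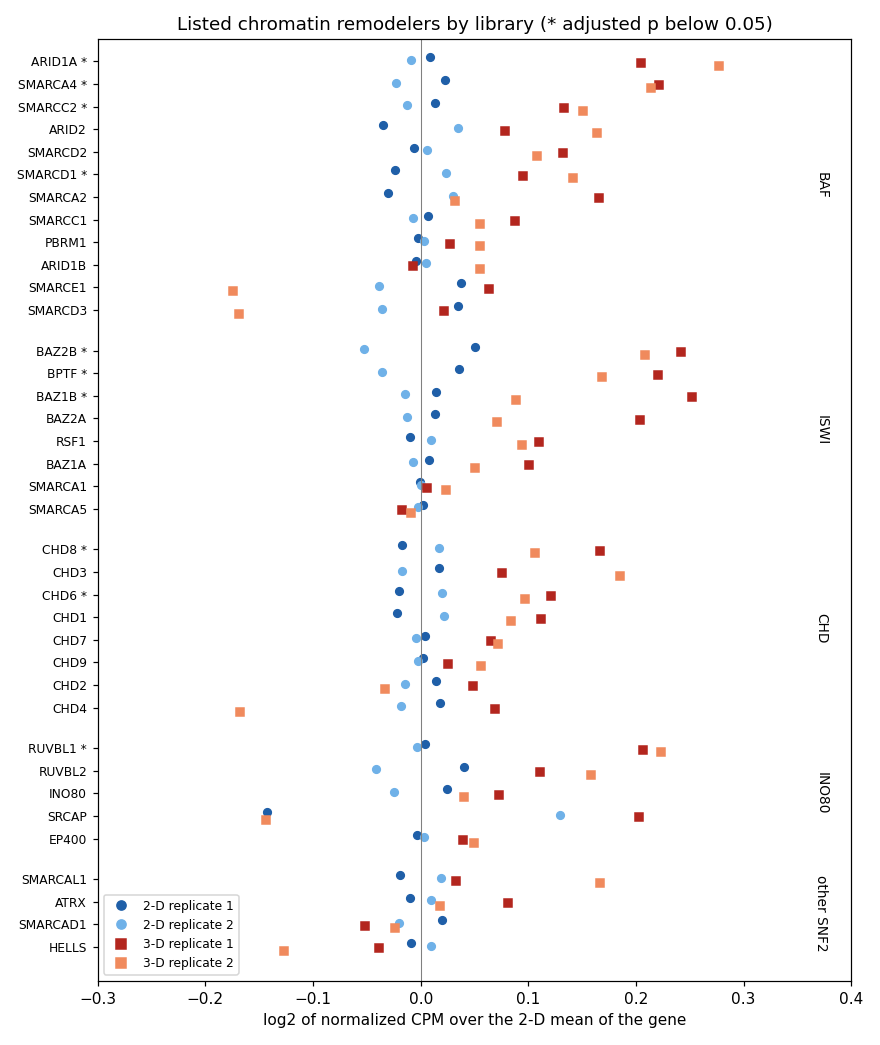
The horizontal axis gives log2 of a gene's normalized CPM in each of the 4 libraries over its 2-D mean, for 37 remodelers grouped by family, with circles for 2-D, squares for 3-D and an asterisk for an adjusted p below 0.05. ARID1A, SMARCA4, RUVBL1 and BAZ2B have both 3-D libraries farthest to the right of 0, while 3-D replicate 2 stands to the left for SMARCE1, SMARCD3, CHD4 and HELLS.

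Scaling of the libraries bears on these small values. With library size in place of TMM, the median of all tested genes moved to −0.065, the median of the remodelers was 0.034, 22 were higher and 15 lower, and 5 were called higher (SMARCA4, ARID1A, BPTF, BAZ2B and RUVBL1) and 1 lower (HELLS). That scaling also turned the split over all genes from 1024 higher and 758 lower (57.5% of calls higher) to 514 higher and 1879 lower (21.5%), which are 2.28% and 8.33% of the tested genes. Of the called remodelers, SMARCC2 was then at 0.077, SMARCD1 at 0.054, BAZ1B at 0.11, CHD6 at 0.045 and CHD8 at 0.073, each uncalled. Library sizes that leave out histone, ribosomal protein and mitochondrial genes, and with them the unequal mitochondrial share, left 8 remodelers called higher and split all calls into 799 higher, 3.54% of the tested genes, and 908 lower (46.8% of calls higher). Of the 7 fibroblast markers, COL1A1 and THY1 were called higher (log2 fold changes 0.29 and 0.22). COL1A2, the most abundant, was at −0.037 and PDGFRB at 0.017, neither of them called. PDGFRA was at 1.56 CPM or lower, LUM at 0.95 or lower and DCN at 0.19 or lower. The 7 summed to 528 and 520 CPM in 2-D and to 532 and 579 CPM in 3-D. The 4 mesoderm markers summed to 66.6 and 66.2 CPM in 2-D and to 71.0 and 71.3 in 3-D, and the 4 endoderm markers to 5.78 and 6.30 CPM in 2-D and to 7.49 and 7.87 in 3-D, with no gene of either list called. Whether fibroblast, mesoderm or endoderm cells were present, and any part of theirs in the results, was not tested.

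Of 12 tested BAF genes, 4 (33.3%) were called higher, and the median log2 fold change was 0.11. By comparison, 4.54% of all tested genes were called higher, and 20.5% of protein-coding genes with a mean of at least 100 CPM. Of the BAF genes, SMARCA2, SMARCD2, SMARCD3 and SMARCE1 had means below that level. SMARCA4 (BRG1), the catalytic ATPase that predominates in stem cells (ENSG00000127616.18), lies on chromosome 19 from 10960932 to 11079426. Its 2-D libraries were at 348 and 337 normalized CPM and its 3-D libraries at 400 and 398. Both 3-D libraries were above both 2-D libraries, and the mean was 16.3% higher (log2 fold change 0.22, standard error 0.03, edgeR adjusted p = 0.00101). With offsets for length and GC the change was 0.13, still called. SMARCA2 (BRM), the alternative ATPase, had 50.1 and 52.2 CPM in 2-D and 57.4 and 52.3 in 3-D. Here 3-D replicate 2 sat next to the 2-D libraries, and the change of 0.10 (standard error 0.05) was not called (edgeR adjusted p = 0.284). Whether the changes of SMARCA4 and SMARCA2 differ was not tested.

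ARID1A carries the DNA-binding subunit that defines the canonical BAF complex (ENSG00000117713.20) and spans chromosome 1 from 26693236 to 26782104. Its values were 265 and 262 CPM in 2-D and 303 and 319 CPM in 3-D. The conditions were well apart, and the mean was 18.2% higher in 3-D (log2 fold change 0.24, standard error 0.03, edgeR adjusted p = 0.00080). With offsets for length and GC it was 0.16, still called, and below BAZ2B (0.22) and BPTF (0.17) under the same offsets. Its paralog ARID1B, which takes the same place in other BAF complexes, had 147 and 148 CPM in 2-D and 147 and 153 in 3-D, so the libraries overlapped. ARID1B's change of 0.02 became −0.04 with library size only, and also once offsets took account of gene length and GC.

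Among the scaffold subunits, SMARCC2 had 99.3 and 97.5 CPM in 2-D and 108 and 109 in 3-D (log2 fold change 0.14, standard error 0.03, edgeR adjusted p = 0.0155). SMARCC1, the partner favored in stem cells, was higher in level, at 539 and 534 CPM in 2-D and 571 and 558 in 3-D, and its change of 0.07 was not called. SMARCD1, a subunit that bridges the complex to transcription factors, had 134 and 139 CPM in 2-D and 146 and 151 in 3-D (log2 fold change 0.12, standard error 0.03, edgeR adjusted p = 0.0398). SMARCC2 and SMARCD1 lost the call without either 2-D library, so that 2 BAF genes were called then, and also with DESeq2, with library size only and with length and GC offsets. Exons of SMARCC2 overlap MYL6, on the opposite strand, over 9.91% of their length, and whether counting used strand is not given in the sources used here.

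The remaining BAF genes gave no call. ARID2 and PBRM1 belong to PBAF, a form with the many bromodomains of PBRM1, with changes of 0.12 and 0.04. SMARCD2 was at 0.12 with non-overlapping libraries. SMARCE1, an HMG-box subunit, and SMARCD3, typical of muscle and heart, had −0.05 and −0.07, were low at 19.4 to 22.8 and 2.90 to 3.34 CPM, and were above 0 (0.06 and 0.02) without 3-D replicate 2. Their exons are shared with other genes over 18.9% and 28.4% of their length.

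SMARCB1, a core BAF subunit whose loss drives rhabdoid tumors, had 0, 0, 1 and 0 counts in the 4 libraries. Whether this value measures its RNA is uncertain. SMARCB1 lies on chromosome 22 from 23786931 to 23838009, and its longest transcript matches an alternate contig of hg38 over 100% of its length with 100% identity. The contig runs alongside chromosome 22 from 23763639 to 24067773. Of the 12 protein-coding genes wholly in that stretch, 11 had 3 or fewer counts summed over all libraries, among them MIF with 0. The exception, GSTT2B, had 156. The next 5 protein-coding genes on either side had sums of 4 to 10099. VPREB3 and SPECC1L-ADORA2A (4 each), DRICH1 (5) and C22orf15 (7) were barely above the genes of the stretch. The highest sum was in CABIN1, which lies partly within the stretch, as C22orf15 does at the other end. How reads that match 2 places were treated is not given in the sources used here, and the cause was not tested.

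**Figure D2:**
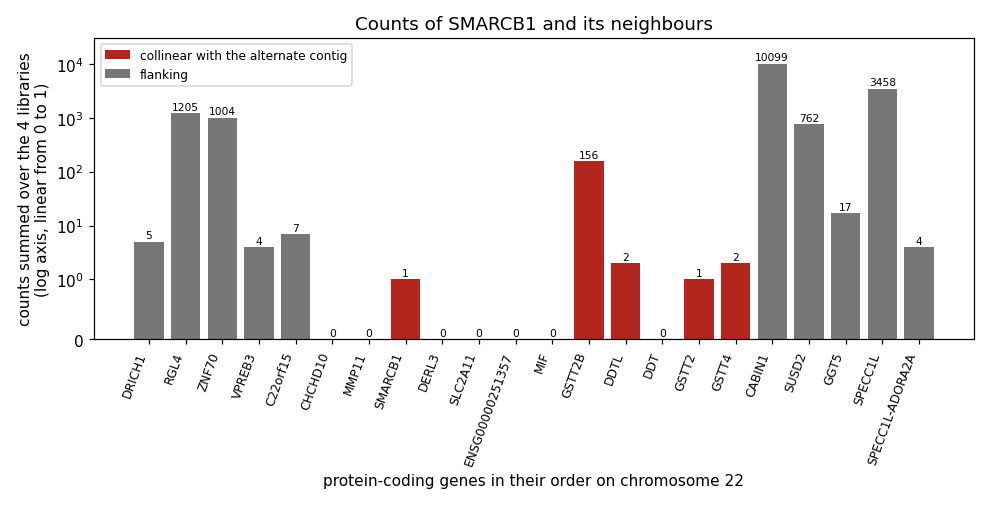
Counts summed over the 4 libraries (vertical, logarithmic above 1) are shown for protein-coding genes in their order along chromosome 22. Genes wholly inside the stretch collinear with the alternate contig are set apart from 5 neighbors on each side. The neighbors C22orf15 and CABIN1 cross the ends of the stretch. SMARCB1 and 10 other genes of the stretch are at 0 to 2 counts, and GSTT2B is at 156.

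ISWI complexes had 3 of 8 genes (37.5%) called higher and a median of 0.12. Called higher were 4.54% of all tested genes and 20.5% of protein-coding genes with a mean of at least 100 CPM. Of the ISWI genes, BAZ2B had a mean below that level. All 3 called ISWI genes encode large accessory subunits that read histones or guide the motor. The ATPases themselves barely differed. SMARCA5 (SNF2H), the main ISWI motor, had 415 and 414 CPM in 2-D and 409 and 412 in 3-D, a log2 fold change of −0.013 with a standard error of 0.03 (edgeR adjusted p = 0.854). SMARCA1 (SNF2L) had 170 and 170 CPM in 2-D and 171 and 173 in 3-D, a log2 fold change of 0.014 with the same standard error (edgeR adjusted p = 0.844). The sign of SMARCA5 turned with length and GC offsets (0.016) and that of SMARCA1 with library size only (−0.05).

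BPTF, the largest NURF subunit and a reader of trimethylated H3K4, had 390 and 371 CPM in 2-D and 443 and 428 in 3-D. It was 14.4% higher (log2 fold change 0.19, standard error 0.03, edgeR adjusted p = 0.00397). BAZ1B, the WICH subunit deleted in Williams syndrome, had 274 and 269 CPM in 2-D and 324 and 289 in 3-D. The 3-D libraries differed from each other more than the lower of them did from 2-D, and the change of 0.17 had a standard error of 0.04 (edgeR adjusted p = 0.0317). It was 0.089 without 3-D replicate 1. BAZ2B had 55.3 and 51.5 CPM in 2-D and 63.2 and 61.7 in 3-D, 16.9% higher (log2 fold change 0.22, standard error 0.05, edgeR adjusted p = 0.0099). Without 2-D replicate 2, none of the 8 ISWI genes was called, and without 3-D replicate 2, 5 were. BAZ2A, the NoRC subunit that silences ribosomal DNA, missed the threshold by little, with 182 and 178 CPM in 2-D and 207 and 189 in 3-D (log2 fold change 0.14, edgeR adjusted p = 0.0502). RSF1 and BAZ1A were at 0.10 and 0.08, with 3-D above 2-D in both and no call.

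CHD remodelers had 2 of 8 genes (25%) called higher and a median of 0.08. That share is near the 20.5% of protein-coding genes with a mean of at least 100 CPM, and 4.54% of all tested genes were called higher. CHD3, CHD4 and CHD9 had means below 100 CPM, so the family share and the 20.5% are at unlike levels. CHD8, a regulator of chromatin best known from autism genetics, had 296 and 303 CPM in 2-D and 336 and 322 in 3-D, 9.97% higher (log2 fold change 0.14, standard error 0.03, edgeR adjusted p = 0.0210). Its relative CHD6 had 120 and 124 CPM in 2-D and 133 and 131 in 3-D, 7.87% higher (log2 fold change 0.11, standard error 0.03, edgeR adjusted p = 0.0461). Neither was called without 2-D replicate 1 or without 2-D replicate 2, which left 0 CHD genes called. With library size only, 0 were called as well.

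CHD7, the gene of CHARGE syndrome, had 180 and 179 CPM in 2-D and 188 and 189 in 3-D, a narrow but complete separation with a change of 0.07 that was not called (edgeR adjusted p = 0.193). CHD1, which keeps stem cell chromatin open, had 228 and 235 CPM in 2-D and 250 and 245 in 3-D (log2 fold change 0.10, edgeR adjusted p = 0.0780). CHD9 and CHD2 were close to 0, at 0.04 and 0.0088, and CHD2 was below 0 with library size only (−0.06). CHD3 had 37.4 and 36.5 CPM in 2-D and 39.0 and 42.1 in 3-D, with a change of 0.13 and a standard error of 0.06. CHD4, the main NuRD ATPase, was counted at 35.4 and 34.5 CPM in 2-D and 36.7 and 31.1 in 3-D. Other annotated genes cover 53.5% of its exon bases, so the level of CHD4 is uncertain, and its change of −0.04 became 0.07 without 3-D replicate 2.

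In the INO80 group 1 of 5 genes (20%) was called higher, with a median of 0.06 that was −0.0077 with library size only. The share is near the 20.5% of protein-coding genes with a mean of at least 100 CPM, and 4.54% of all tested genes were called higher. The genes INO80, SRCAP and RUVBL2 had means below 100 CPM, so here too the levels are unlike. RUVBL1 (Pontin), an AAA ATPase that forms a ring with RUVBL2 in the INO80, SRCAP and TIP60 complexes (ENSG00000175792.12), lies on chromosome 3 from 128064778 to 128153914. It had 135 and 134 CPM in 2-D and 156 and 157 in 3-D. Replicates nearly coincided, and the mean was 16.1% higher in 3-D (log2 fold change 0.21, standard error 0.03, edgeR adjusted p = 0.00078). Other genes, EEFSEC and SEC61A1 on the opposite strand, cover 13.8% of its exon bases. RUVBL2 (Reptin) had 73.5 and 69.4 CPM in 2-D and 77.2 and 79.8 in 3-D, with a change of 0.13 and a standard error of 0.04 (edgeR adjusted p = 0.0613). RUVBL2 was called without 3-D replicate 1, which made 2 calls in the group.

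The ATPases that name the complexes were not called. INO80 had 62.2 and 60.1 CPM in 2-D and 64.3 and 62.9 in 3-D (log2 fold change 0.06, standard error 0.04, edgeR adjusted p = 0.468). EP400, of the TIP60 complex, had 213 and 214 CPM in 2-D and 219 and 221 in 3-D (log2 fold change 0.04, standard error 0.03, edgeR adjusted p = 0.439). SRCAP had 8.65 and 10.4 CPM in 2-D and 11 and 8.65 in 3-D, so its libraries overlapped fully (log2 fold change 0.05, standard error 0.13, edgeR adjusted p = 0.881). Other annotated genes cover 76.5% of the exon bases of SRCAP, and its level is uncertain. All 3 were below 0 with library size only, at −0.0077, −0.02 and −0.016.

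None of the 4 other SNF2 remodelers was called, by edgeR or by DESeq2, and 1 of them (HELLS) had an unadjusted p below 0.05. HELLS (LSH), which promotes DNA methylation of repeats, had 482 and 488 CPM in 2-D and 472 and 444 in 3-D (log2 fold change −0.08, standard error 0.03, edgeR adjusted p = 0.186). It was called lower without 3-D replicate 1 and with library size only. SMARCAD1, a remodeler of heterochromatin and repair, had 268 and 260 CPM in 2-D and 255 and 260 in 3-D, a change of −0.04. ATRX, which deposits H3.3 at telomeres with DAXX, had 395 and 401 CPM in 2-D and 421 and 403 in 3-D, a change of 0.05 that was called without 3-D replicate 2 and below 0 (−0.015) with library size only. SMARCAL1, a replication fork enzyme, was at 23.8 to 27.1 CPM with a change of 0.10.

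The partner list holds 73 further subunits and relatives of the same complexes, of which 70 were tested. Of these, 5 were called higher, 7.14% against the 4.54% of all genes, and 3 were called lower, where 3.36% of all genes were. Their median log2 fold change was 0.0021. Partners in BAF were DPF2 and BRD7 among 16 tested, both higher. DPF2, a reader of histone acetylation in canonical BAF, had 63.8 and 63.4 CPM in 2-D and 72.4 and 71.8 in 3-D (log2 fold change 0.18, edgeR adjusted p = 0.00890). BRD7, of PBAF, was at 0.11, and other genes cover 41.9% of its exon bases. None of the 5 ISWI partners was called by edgeR, and 3 of them had an unadjusted p below 0.05, which 21.3% of all tested genes had. Those 3 were lower in 3-D, with POLE3 at −0.11, RBBP4 at −0.10 and RBBP7 at −0.07, while the other 2 were above 0.

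GATAD2A, which joins the deacetylase and remodeling modules of NuRD, stood at 205 and 207 CPM in 2-D and at 248 and 257 in 3-D, 22.4% higher (log2 fold change 0.29, standard error 0.03, edgeR adjusted p = 0.00016). GATAD2A was the only call among 12 CHD partners. Its paralog GATAD2B ranged from 5.64 to 11.8 CPM without regard to condition and has a copy on an alternate contig, so it is uncertain. Of 25 INO80 partners, INO80E and VPS72, a chaperone of H2A.Z, were higher (0.18 each), while ACTR6, an actin-related subunit of SRCAP, was lower, at 31.8 and 32.1 CPM in 2-D and 28.1 and 24.3 in 3-D (log2 fold change −0.29, edgeR adjusted p = 0.0338).

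Among 12 other SNF2 genes and partners, 11 had values below 0 and 2 were called lower. Of the 22555 tested genes, 11283 had values below 0 and 3.36% were called lower. CDCA7, the zinc finger protein that recruits and activates HELLS, had 90.6 and 95.3 CPM in 2-D and 74.9 and 77.8 in 3-D, 17.9% lower (log2 fold change −0.28, standard error 0.04, edgeR adjusted p = 0.00076). HLTF, a fork-remodeling translocase, had 76.1 and 77.3 CPM in 2-D and 67.9 and 68.4 in 3-D (log2 fold change −0.17, edgeR adjusted p = 0.0114), and other genes cover 29.8% of its exon bases. Without 2-D replicate 1 and without 2-D replicate 2, 1 partner was called higher each time, and without 3-D replicate 1, 5 were called lower. ACTL6B, INO80B and TFPT were too low to be tested, and TFPT has 9 copies on alternate contigs.

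**Figure D3:**
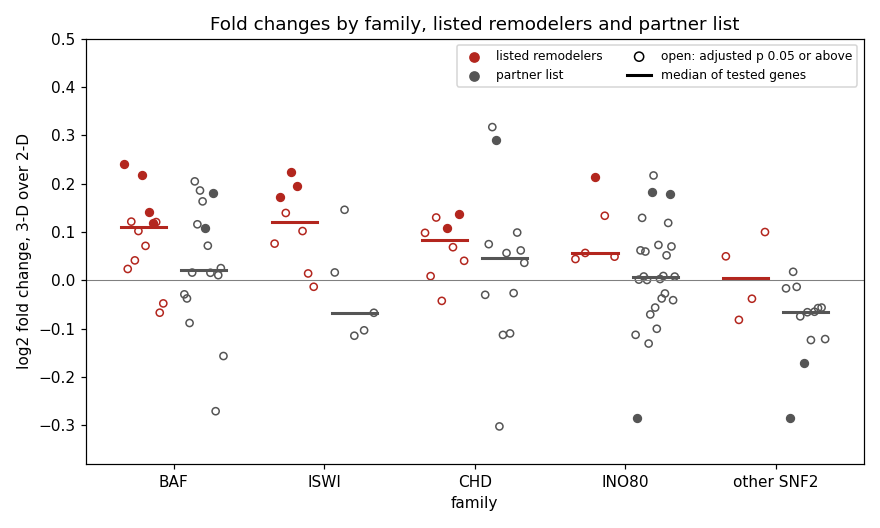
Log2 fold changes of 3-D over 2-D (vertical) are plotted for each listed remodeler and each partner gene by family, with called genes marked apart. Listed BAF, ISWI, CHD and INO80 genes sit mostly above 0, up to 0.24, while the partners spread to both sides and the called partners run from −0.29 (ACTR6) and −0.28 (CDCA7) to 0.29 (GATAD2A).

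The histone variant that the INO80 group exchanges went the other way from RUVBL1. H2AZ1, the main H2A.Z gene, had 365 and 369 CPM in 2-D and 309 and 297 in 3-D, 17.4% lower (log2 fold change −0.28, standard error 0.03, edgeR adjusted p = 0.00024). H2AZ2, which encodes a near-identical protein, had 94.9 and 96.5 CPM in 2-D and 83.5 and 80.3 in 3-D, 14.4% lower (log2 fold change −0.22, standard error 0.03, edgeR adjusted p = 0.0018). The conditions did not overlap for either gene, and both were called lower under all 13 other settings.

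Per kilobase of merged exon, SMARCC1 was at 70.4 ± 0.466 CPM per kilobase in 2-D (SD, n = 2), SMARCA5 at 50.9 ± 0.125 and HELLS at 34.1 ± 0.309. The order of levels depended on the length used, an alternative chosen after seeing the data. Per kilobase of the longest transcript, HELLS was at 87.3 ± 0.791, SMARCC1 at 84.5 ± 0.559, SMARCA4 at 59.3 ± 1.31 and SMARCA5 at 53.9 ± 0.132, so SMARCC1 and SMARCA5 were among the 4 most abundant of 35 remodelers by either length, with SMARCB1, CHD4 and SRCAP left out of the order. Levels per kilobase made it possible to ask which paralog of a complex dominated. SMARCA4 made up 89.1% ± 0.503 of the SMARCA4 and SMARCA2 sum in 2-D and 89.9% ± 0.566 in 3-D (SD, n = 2), a difference of 0.77 points. Leaving out the second library of a condition made it 0.37 (3-D) or 0.42 (2-D), and leaving out 3-D replicate 1 made it 1.17. SMARCC1 was 86.8% ± 0.0718 of the SMARCC sum in 2-D and 86.2% ± 0.296 in 3-D, and the difference of −0.57 points was −0.36 without 3-D replicate 2. The share of ARID1A in the ARID1A and ARID1B sum was 83.7% ± 0.179 in 2-D and 85.7% ± 0.0607 in 3-D, a difference of 1.94 percentage points that was 3.11 with the longest transcript in place of merged exons.

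The other groups differed by 0.12 to 1.38 percentage points in size between conditions, except CHD4, and most of these differences moved widely with 1 library left out. SMARCA5 was 56.6% ± 0.0757 of the ISWI ATPase sum in 2-D and 56.1% ± 0.105 in 3-D. RUVBL1 was 48.7% ± 0.916 of the RUVBL sum in 2-D and 50.1% ± 0.365 in 3-D, and the difference of 1.38 points was 0.73 without 2-D replicate 1. BAZ1A was 26.7% ± 0.128 of its sum with BAZ1B in 2-D and 25.4% ± 1.06 in 3-D, and BAZ2A was 86.2% ± 0.450 and 85.4% ± 0.599 of its sum with BAZ2B. The BAZ1A difference of −1.26 points was −0.51 when 3-D replicate 1 was left out and −2.01 when 3-D replicate 2 was. The BAZ2A difference of −0.75 points was −1.17 when 3-D replicate 1 was left out, −0.32 when 3-D replicate 2 was and −0.43 when 2-D replicate 2 was. SMARCD1 was 71.2% ± 0.399 and 71.3% ± 0.788 of the SMARCD sum, with overlapping libraries, and the difference ran from −0.43 to 0.68 points with 1 library left out. CHD4 was 45.0% ± 0.0284 of its sum with CHD3 in 2-D and 42.0% ± 4.14 in 3-D, where 3-D replicate 2 alone was low (the difference was −0.11 points without it), and CHD4 is uncertain as above. With 2 libraries against 2, the smallest two-sided p an exact permutation test allows is 0.333, so the shares were not tested.

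**Figure D4:**
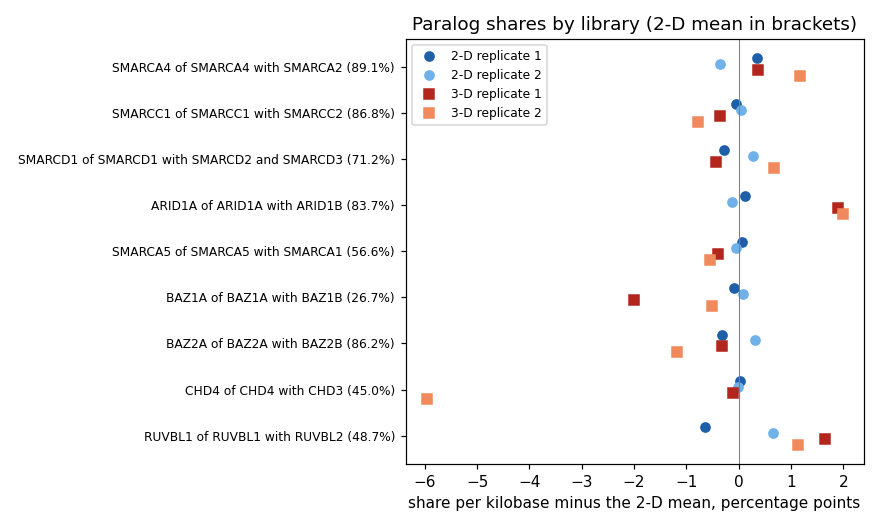
Each row gives the share of a paralog in the summed level per kilobase of its group, as percentage points (horizontal) from the 2-D mean that stands in brackets, with circles for 2-D and squares for 3-D libraries. ARID1A lies about 1.94 points to the right in both 3-D libraries, and CHD4 is far to the left in 3-D replicate 2.

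Calls that did not depend on the settings were few. SMARCA4, ARID1A and RUVBL1 were called higher under all 13 other settings, including each single library left out, and so were the partner GATAD2A (higher) and CDCA7 (lower). BPTF lost its call under 1 setting, BAZ2B under 2, BAZ1B under 3, CHD8 under 5, SMARCC2 under 6, SMARCD1 under 8 and CHD6 under 9. All 10 remodelers kept a change above 0 under each setting. Of the other called partners, HLTF and ACTR6 lost the call under 3 settings each, DPF2 under 4, VPS72 under 7, and INO80E and BRD7 under 8 each.

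**Figure D5:**
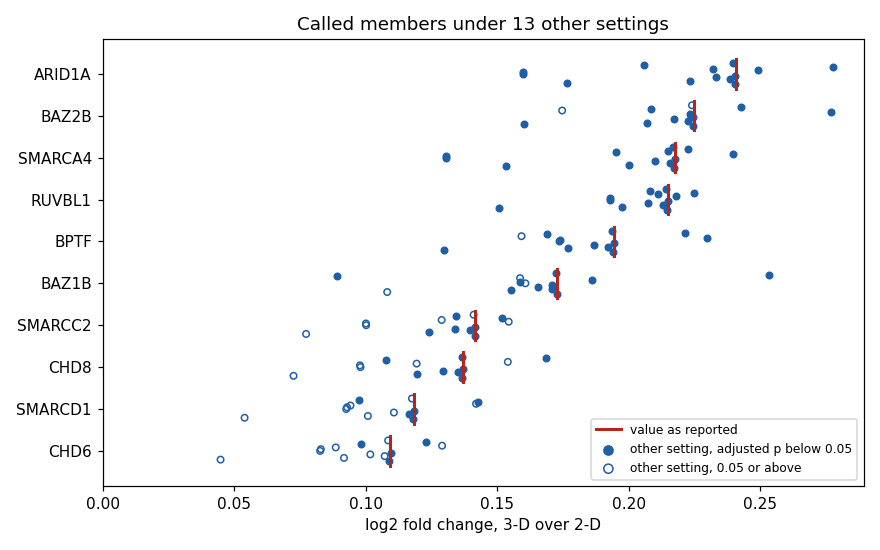
For the 10 called remodelers, the log2 fold change of 3-D over 2-D (horizontal) is drawn as reported (bar) and under 13 other settings, with filled circles for an adjusted p below 0.05 and open circles otherwise. ARID1A, SMARCA4 and RUVBL1 have filled circles alone, and SMARCD1 and CHD6 have mostly open ones.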

How the data were processed

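RNA-seq values of the 2 culture conditions of Elf1 were read from the deposited counts, whole numbers per gene and library without normalization, 1 table per library. The authors depleted ribosomal RNA, trimmed reads with Trim Galore 0.6.3, mapped them to hg38 with HISAT2 2.1.0 and counted GENCODE release 30 genes with featureCounts 1.6.4. A deposited table of normalized values with the authors' fold changes, standard errors, Wald statistics and p-values was not used.

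Identifiers were matched to GENCODE 44 (60295 of 60564, the others holding 0.122% of counts). Counts were filtered (filterByExpr), TMM-normalized and tested with edgeR 4.0.16 in R 4.3.3 (quasi-likelihood, condition alone, Benjamini-Hochberg below 0.05). The fit was also run on simulated data. The planted changes were larger than those of the remodelers, so that run does not bear on calls of changes this small. The biological coefficient of variation was 5.10%. Replicates differed by more than sampling noise (chi-square over degrees of freedom 2.45 in 2-D and 4.39 in 3-D). The standard error is the log2 fold change over the square root of F. Copies were sought with minimap2 2.31-r1302 (at least 80% of the transcript, 98% identity). Alternatives included DESeq2 1.42.0, other scalings, filters, a replicate block, length and GC splines with 5 degrees of freedom, and each library left out. Alternative lengths for levels were added after seeing the data. Members and lists were chosen with earlier results of these data known. Every listed remodeler is named, with called partners, at most 4 per direction and family, and the H2A.Z genes.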

Additional observations from a re-analysis of the deposited data

How the results depend on the processing

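The count of remodelers called higher (10) was 5 with library size only, 6 with DESeq2 and 3 to 15 with a library left out, and the count called lower (0) was 1 with library size only and 0 to 1 with a library left out. By family, BAF calls (4) were 2 with library size only, with length and GC offsets and with DESeq2, and 2 to 5 with a library left out. ISWI calls (3) were 0 to 5 with a library left out. CHD calls (2) were 0 with library size only, 1 without mitochondrial, histone and ribosomal protein genes in the library sizes, 1 with at least 10 counts in every library, 1 with length and GC offsets, 1 with those and a replicate block, 1 with DESeq2, and 0 to 3 with a library left out. INO80 calls (1) were 2 with no filter on low counts and 2 with a replicate block, and 1 to 2 with a library left out. Other SNF2 calls (0 and 0) were 1 lower with library size only, and 0 to 1 in either direction with a library left out. Partners called higher (5) were 1 with library size only, 2 without mitochondrial, histone and ribosomal protein genes, 3 with at least 10 counts, 1 with DESeq2 and 1 to 7 with a library left out. Partners called lower (3) were 16 with library size only, 5 without mitochondrial, histone and ribosomal protein genes, 5 with no filter, 5 with at least 10 counts, 5 with a replicate block, 1 with DESeq2 and 2 to 5 with a library left out. The median of the remodelers (0.10) was 0.034 with library size only, 0.081 without mitochondrial, histone and ribosomal protein genes, 0.073 with length and GC offsets, 0.072 with those and a replicate block, and 0.072 to 0.11 with a library left out, and was above 0 under every setting. The ARID1A share difference was 3.11 with the longest transcript. Of 240 such values, 192 stayed within the limits set, which were wide where replicates differed. Counts had to be equal or of similar size, and medians and shares within the SD between replicates. The CHD4 share difference of −3.04 points thus passed at −5.97 without 3-D replicate 1. Many of the 192 were counts of 0 that stayed at 0. With 1 library left out, the lone library of its condition was assumed to vary like the other condition. The causes were not tested.

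Changes that turned sign with library size only were ARID1B (−0.041), PBRM1 (−0.023), SMARCA1 (−0.050), CHD2 (−0.056), CHD9 (−0.024), INO80 (−0.0077), EP400 (−0.020), SRCAP (−0.016) and ATRX (−0.015). Without mitochondrial, histone and ribosomal protein genes, SMARCA1 (−0.0032) and CHD2 (−0.0089) did. With length and GC offsets, with and without a replicate block, ARID1B (−0.042 both times), SMARCA5 (0.016), CHD2 (−0.028 and −0.027), EP400 (−0.028), SRCAP (−0.028) and SMARCAD1 (0.0024 and 0.0023) did. Leaving out a library gave SMARCD3 −0.17 to 0.022, SMARCE1 −0.17 to 0.064, ARID1B −0.0057 to 0.056, CHD2 −0.033 to 0.050, CHD4 −0.17 to 0.070 and SRCAP −0.14 to 0.21.

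The replicate numbers in the titles do not say whether libraries were paired across conditions. Deviations from the condition means over 10209 genes correlated at −0.039 between 2-D replicate 1 and 3-D replicate 1. With 2 libraries per condition, the crossed pair gives the same value with the opposite sign by construction. A replicate block called 13 remodelers higher.

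Depth limits SMARCD3 and SRCAP most, at 2.90 to 11 CPM, with standard errors of 0.17 and 0.13 against a median of 0.03 over the remodelers.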
